A study of Mus musculus with 6 samples.

Results

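Ttr, Gc and Smarca1, taken by symbol from the count table, are 3 of its 55536 genes. They were chosen by their enrichment in alpha cells, the glucagon-producing cells of the pancreatic islet, among genes that encode no hormone, and with their knockout and control counts in these libraries in view. Their differences between genotypes are therefore given as a description, without a test. The study sequenced polyadenylated RNA of whole isolated islets from mice of 2 genotypes, with 3 libraries each, to learn which genes the transcription factor KLF4 regulates in alpha cells. Control mice were Klf4+/+;Gcg-iCre and knockout mice Klf4fl/fl;Gcg-iCre, so that every mouse carried Gcg-iCre, a Cre recombinase driven by the glucagon gene, and only the knockout mice carried floxed Klf4 alleles. The strain is recorded as C57B1/6J; age and sex are not recorded in the labels, nor whether a library came from 1 mouse or from several. If replicates were not separate animals, the p-values below measure only the spread between libraries.

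Ttr encodes transthyretin, a secreted protein that carries thyroxine and, together with the retinol-binding protein RBP4, retinol (vitamin A) in plasma. Gc encodes the vitamin D-binding protein, a secreted member of the albumin family that carries vitamin D metabolites and also captures actin monomers released from damaged cells. Both are classic liver products, and both are also made by alpha cells. Smarca1 encodes an ATPase of the ISWI class of chromatin remodellers, which slide nucleosomes along DNA in complexes with partners such as BPTF. Because hepatocytes would add Ttr and Gc but also albumin, each library is read against Alb (albumin) as well as against Gcg (glucagon).

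The 3 genes lie on different chromosomes of GRCm38 and overlap no other annotated gene, so the unrecorded strand setting of the counting cannot have mixed their reads with those of a gene on the opposite strand. Gc (ENSMUSG00000035540) spans chromosome 5 from 89417522 to 89457898 on the minus strand, with 13 exons in its longest transcript. It lies 1.003 Mb from Alb on the same chromosome. Smarca1 (ENSMUSG00000031099) spans chromosome X from 47809368 to 47892974 on the minus strand, with 23 exons in its longest transcript and 7 annotated transcripts.

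The RefSeq promoter table for GRCm38.p6, which gives 250 bases before and 50 after each start, held 2 of the 3 genes. Their windows are shown with that of Alb, since the sequence next to the start is where the family member Gc can be set beside the liver gene. Each is written 5′ to 3′ on the gene's own strand, and capitals mark every match, on either strand, to 7 short motifs: CACCC (the box bound by KLF and SP factors), GTTAAT (a motif known from promoters of liver genes), CAAAGTC (part of the HNF4 site), TGTTTAC and TGTTTGC (forkhead sites), TTGCAA (part of the C/EBP site) and TATAAA.
Gc, chr5:89457849-89458148, minus strand: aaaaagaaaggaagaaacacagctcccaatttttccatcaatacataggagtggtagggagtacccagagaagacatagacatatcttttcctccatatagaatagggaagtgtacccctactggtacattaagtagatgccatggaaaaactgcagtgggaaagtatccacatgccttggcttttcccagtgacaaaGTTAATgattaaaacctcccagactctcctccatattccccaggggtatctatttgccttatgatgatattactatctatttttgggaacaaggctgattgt
Alb, chr5:90460620-90460919, plus strand: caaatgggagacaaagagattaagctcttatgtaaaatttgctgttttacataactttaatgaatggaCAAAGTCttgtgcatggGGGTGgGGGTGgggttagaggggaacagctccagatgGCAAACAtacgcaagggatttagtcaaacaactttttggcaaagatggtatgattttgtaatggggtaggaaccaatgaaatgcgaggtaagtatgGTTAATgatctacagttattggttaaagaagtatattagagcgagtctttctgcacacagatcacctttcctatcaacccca
Smarca1, chrX:47892564-47892863, minus strand: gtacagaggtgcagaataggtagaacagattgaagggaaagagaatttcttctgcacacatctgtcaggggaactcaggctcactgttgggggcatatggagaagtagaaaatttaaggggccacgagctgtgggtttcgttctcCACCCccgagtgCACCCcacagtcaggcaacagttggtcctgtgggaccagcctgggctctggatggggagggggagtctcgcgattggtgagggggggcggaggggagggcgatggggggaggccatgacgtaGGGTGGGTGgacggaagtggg

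The windows of Gc and Alb each held GTTAAT, starting 52 bases before the start in Gc and 32 bases before it in Alb. That motif occurs in 7.10% of the 32851 windows of the table. It was the only one of the 7 motifs in the Gc window, whereas Alb also held CAAAGTC, the forkhead motif TGTTTGC and 2 copies of CACCC. Of the 7 motifs, the window of Gcg, searched in the same way and not printed here, held CACCC and TATAAA but not GTTAAT. The Smarca1 window held CACCC at 4 places, of which the last 2 share a base, and none of the other 6 motifs. CACCC occurs in 57.5% of all windows. The whole Smarca1 window, which reaches to 47892863, lies inside the annotated span of the gene, which reaches to 47892974. The RefSeq start is therefore not the outermost annotated start of Smarca1, and the window describes the RefSeq start only. Base composition also differed, with 40.3% G and C and 0 CpG in Gc, 40.0% and 3 CpG in Alb, and 58.7% and 9 CpG in Smarca1, against medians of 52.7% and 7 CpG. A match is a description of the letters and does not show that a factor binds there.

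The libraries held 101277200 to 110243918 counts. Values by library are given in replicate order, as normalized counts (counts divided by a size factor per library). Klf4, the targeted gene, stood at 3148, 2879 and 2015 in the controls and 2340, 2540 and 2277 in the knockouts. The groups overlapped, so the gene-level count of whole islets does not check the deletion. The log2 difference of Klf4 was -0.17 ± 0.15 (SE, DESeq2 adjusted p = 0.774), and it ran from -0.34 to -0.04 over 12 alternatives. Klf4 passed in 1 of them, DESeq2 without control replicate 3 (adjusted p = 0.00568). Xist, the RNA of the inactive X chromosome, was at 77938 to 108105 normalized counts in the control and at 12.4 to 30.2 in the knockout libraries; its count is uncertain, since 3 annotated genes, Tsix among them, overlap it on the opposite strand and 2 on its own. The sex-linked transcript and the genotype thus divide the libraries in the same way and cannot be told apart in any comparison here. Knockout replicate 1 stood apart in hepatocyte transcripts, as described below, and values that rest on it are given with and without it.

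Transthyretin RNA was among the most abundant transcripts of these islets. Ttr (ENSMUSG00000061808) spans chromosome 18 from 20665280 to 20674321 on the plus strand, with 4 exons. Per kilobase of exon, in CPM (counts scaled to the library total), Ttr was at 1184 ± 302 (SD, n = 6 libraries), rank 21 among 22028 protein-coding genes and between ranks 16 and 26 in every library. Gcg held rank 3 on that scale, with 24600 ± 6512 (SD, n = 6), and the median library had 0.0475 times as much Ttr as Gcg. Rbp4, the partner of transthyretin in retinol transport, was at 91.4 ± 14.5 (SD, n = 6), so that Ttr exceeded it 10.2 to 19.7 times per kilobase.

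The 3 controls held 140595, 200636 and 185874 normalized counts of Ttr. The 3 knockouts held 115093, 140403 and 99793. The lowest control and the highest knockout library all but touched, and the groups did not overlap. Among 15811 genes with a mean of at least 50, 8.54% were lower in knockout without overlap. The means were 175702 ± 31286 in control and 118430 ± 20509 in knockout (SD, n = 3 each), a difference of -32.6%, and the log2 difference was -0.57 ± 0.14 (SE, DESeq2). Left out 1 at a time, the libraries moved it between -0.71 and -0.46.

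The vitamin D-binding protein RNA was far lower than Ttr, at 56.8 ± 7.87 CPM per kilobase (SD, n = 6), rank 448. It was close to the amino acid transporter Slc7a2 on that scale, with a Gc to Slc7a2 ratio of 0.753 to 1.17 over the 6 libraries. Normalized counts of Gc were 9099, 11632 and 12133 in the controls against 13246, 9972 and 9702 in the knockouts. The highest value of all 6 was that of knockout replicate 1 and the lowest that of control replicate 1, and the groups overlapped. Their means were 10955 ± 1626 and 10973 ± 1973 (SD, n = 3 each). The log2 difference was 0.00 ± 0.14 (SE) with all libraries and -0.16 ± 0.13 without knockout replicate 1.

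Smarca1 was the least abundant of the 3 per kilobase, at 11.3 ± 1.20 (SD, n = 6) and rank 3334. Its level was 0.801 to 1.08 times that of Smarca5, which encodes the other ISWI-class ATPase of mammals. The controls held 6802, 8701 and 7401 normalized counts of Smarca1, the knockouts 6369, 7316 and 6724. Control replicate 2 was the highest, and the other 5 libraries lay close together with overlapping groups. The means were 7635 ± 971 and 6803 ± 479 (SD, n = 3 each), with a log2 difference of -0.17 ± 0.10 (SE); leaving out 1 library gave values between -0.24 and -0.06. Smarca1 lies on the X chromosome, and the Xist-positive libraries were the control libraries.

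In order of level per kilobase, Gcg, Ttr, Gc and Smarca1 kept the same order in each of the 6 libraries, and no library's value for one gene reached the range of the next. In whole islets, fewer alpha cells and less RNA per alpha cell cannot be told apart.

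**Figure D1:**
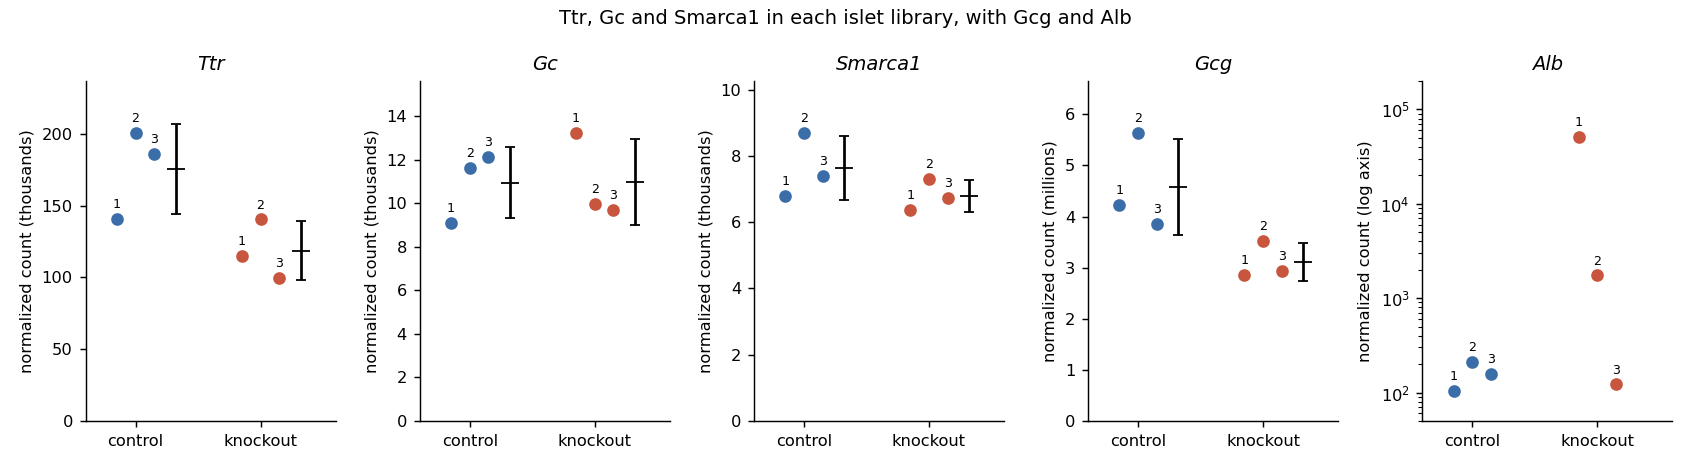
Normalized counts of Ttr, Gc, Smarca1 and Gcg (linear axes from 0) and of Alb (log axis) in the 3 control and 3 knockout islet libraries. Points are libraries numbered by replicate. In all panels but that of Alb, the bars at the right of each group are the mean and SD. Ttr and Gcg lie lower in all 3 knockout libraries, Gc and Smarca1 overlap between the groups, and Alb reaches 51331 in knockout replicate 1.

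Glucagon RNA, the yardstick for alpha-cell RNA, measured 4221947, 5636518 and 3856329 normalized counts in the controls, and 2855551, 3528733 and 2943188 in the knockouts. Every knockout library was below every control library. The log2 difference was -0.56 ± 0.13 (SE), next to -0.57 for Ttr. Relative to Gcg in the same library, Ttr stood at a log2 ratio of -4.91, -4.81 and -4.37 in the controls. In the knockouts it stood at -4.63, -4.65 and -4.88, within the range of the controls. The mean ratios were -4.70 ± 0.28 and -4.72 ± 0.14 (SD, n = 3 each), a difference of -0.02. It was -0.13 without control replicate 1 and 0.14 without control replicate 3, the library with the most Ttr per Gcg.

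The log2 ratio of Gc to Gcg was -8.86, -8.92 and -8.31 in the controls and -7.75, -8.47 and -8.24 in the knockouts. The groups overlapped, because control replicate 3 lay above knockout replicate 2. The mean difference was 0.54, and 0.34 without knockout replicate 1. Smarca1 to Gcg stood at -9.28, -9.34 and -9.03 in the control and at -8.81, -8.91 and -8.77 in the knockout libraries, with every knockout above every control. That difference was 0.38, and 0.37 without knockout replicate 1. All 3 members share the Gcg denominator here, which was itself lower in knockout.

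Albumin RNA was high in 2 of the 3 knockout libraries. The controls held 103, 213 and 157 normalized counts of Alb, the knockouts 51331, 1743 and 122. Knockout replicate 3 was thus at the control level, while replicate 1 stood 55.1 times above the mean of the other knockout libraries. DESeq2 gave Alb no p-value, since its filter on Cook's distance set the gene aside for its extreme count. In raw counts, Ttr exceeded Alb 941 to 1363 times in the controls, 820 times in knockout replicate 3, 80.6 times in knockout replicate 2 and 2.24 times in knockout replicate 1. For Gc the ratio to Alb was 54.6 to 88.2 in the controls and 79.7 in knockout replicate 3. It was 5.72 in knockout replicate 2, and in knockout replicate 1 Alb exceeded Gc 3.88 times. Smarca1 exceeded Alb 40.8 to 65.9 times in the controls, 55.2 times in knockout replicate 3 and 4.20 times in knockout replicate 2, and Alb exceeded Smarca1 8.06 times in knockout replicate 1.

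Against the mean of knockout replicates 2 and 3, replicate 1 held 50398 more normalized counts of Alb and 3409 more of Gc. The same difference was -5004 for Ttr, -651 for Smarca1 and -380409 for Gcg. The library with the most albumin RNA was therefore the one with the most Gc, and for Ttr it was the middle of the 3 knockout libraries. Whether hepatocyte RNA contributed to the Gc count of that library was not tested. In the 3 controls and knockout replicate 3 Alb was at or below 213 normalized counts, and Gc was at 9099 to 12133 and Ttr at 99793 to 200636.

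**Figure D2:**
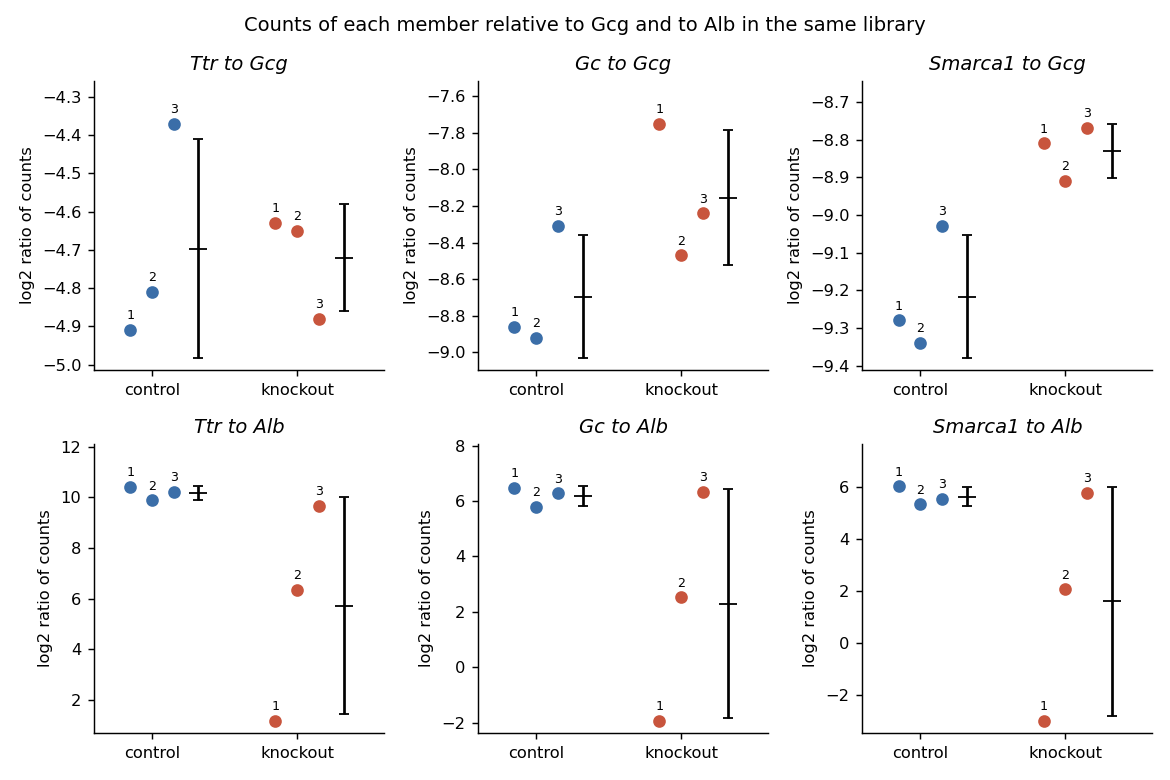
Log2 ratio of the counts of Ttr, Gc and Smarca1 to Gcg (top row) and to Alb (bottom row) within each library; points are libraries numbered by replicate, bars are mean and SD, and each panel has its own axis. The Ttr to Gcg ratio overlaps between the groups, with means of -4.70 and -4.72, whereas each ratio to Alb is lowest in knockout replicates 1 and 2.

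Other hepatocyte transcripts followed Alb. Of a list of 22 hepatocyte genes, 21 were highest in knockout replicate 1, and their summed level was 1394 CPM there, 110 in knockout replicate 2, 59.2 in knockout replicate 3 and 52.6 to 61.9 in the controls. Ambp, which encodes a plasma protease inhibitor precursor, and Tat, which encodes tyrosine aminotransferase, made up 84.6 to 91.7% of the sum in the controls. Without this pair, taken out after their values were seen, the other 20 genes summed to 4.95 to 8.18 CPM in the controls, 1298 in knockout replicate 1, 49.4 in replicate 2 and 6.40 in replicate 3. Serpina3k (a plasma protease inhibitor) and Mup3 (a major urinary protein), both from families of closely similar genes whose reads can be hard to assign, had 0 counts in the 3 controls and knockout replicate 3, where a count of 0 allows up to 3 counts. Knockout replicates 1 and 2 held 7530 and 288 normalized counts of Serpina3k and 5447 and 159 of Mup3. In DESeq2, 11 of the 22 were given an adjusted p and 7 passed the threshold of 0.05, all 7 higher in knockout, while 1.53% of all 17797 genes given an adjusted p passed as higher. They were Apoa1, Apob, Ahsg, Serpina3k, Pzp, Plg and Tat, of which Ahsg, Pzp and Plg overlap genes on the opposite strand. Serpina3k reached the minimum of 10 counts in total only through knockout replicates 1 and 2, so its call is set against controls at 0 and adds nothing to the count, which leaves 6. The edgeR quasi-likelihood test passed 0 of the 22, with 20 at an unadjusted p under 0.05. Without knockout replicate 1, 2 passed, namely Pzp and Plg, beside 0.615% of all genes. With genes below that minimum in the remaining controls left aside as for Serpina3k, 1 of 4 called genes counted without control replicate 1 (1.59% of all genes higher), 1 of 5 without control replicate 2 (1.13%) and 11 of 15 without knockout replicate 3 (1.17%). Of the 3 albumin-family genes only Afm was given an adjusted p in DESeq2 (0.627), since Alb was set aside and Afp had too few counts to be fitted. In edgeR 2 were fitted and 0 passed, with 1, Alb, at an unadjusted p under 0.05. In DESeq2 Alb passed without control replicate 3, without knockout replicate 2 or without knockout replicate 3, 1 gene each time, beside 3.8%, 1.54% and 1.17% of all genes. Each of those fits keeps the extreme count of knockout replicate 1, so these passes cannot be read apart from that library. Without knockout replicate 1 Alb did not pass (DESeq2 adjusted p = 0.598). Without knockout replicate 2 or 3, all 22 hepatocyte genes were given an adjusted p, against 11 with all libraries. Afp, the fetal member, had 2 counts in knockout replicate 2 and 0 elsewhere, and Afm, which encodes a vitamin E-binding relative, measured 23.8, 26.9 and 63.6 normalized counts in the controls against 162, 30.9 and 33.9 in the knockouts.

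Of the other cell types, acinar, mesenchymal and duct markers had higher sums in every knockout than in every control library, and lymphocyte markers had lower ones. The summed level of 8 acinar enzyme genes was 4955 to 10159 CPM in control and 13103 to 17812 in knockout libraries. None of the 8 passed in DESeq2 or edgeR, beside 1.53% and 0.0952% of all genes passing as higher, although all 8 had an unadjusted p under 0.05 in both; without control replicate 2 all 8 passed in DESeq2, beside 1.13% of all genes. Of 6 mesenchymal genes 4 passed as higher (Col1a1, Col1a2, Col3a1 and Dcn), and the sum of the 6 was 462 to 621 CPM in control and 888 to 967 in knockout libraries (shares of all genes as for the acinar list); edgeR passed 2, Col1a1 and Col1a2. The 8 beta-cell genes summed to 184285 to 203003 CPM in control and 200153 to 204292 in knockout libraries, and these ranges overlapped. The 5 duct genes summed to 243 to 264 CPM in control and 277 to 334 in knockout libraries, and the 5 lymphocyte genes to 19.9 to 22.3 and 17.9 to 18.7. The part of these cell types in the differences of Ttr, Gc and Smarca1 was not tested.

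**Figure D3:**
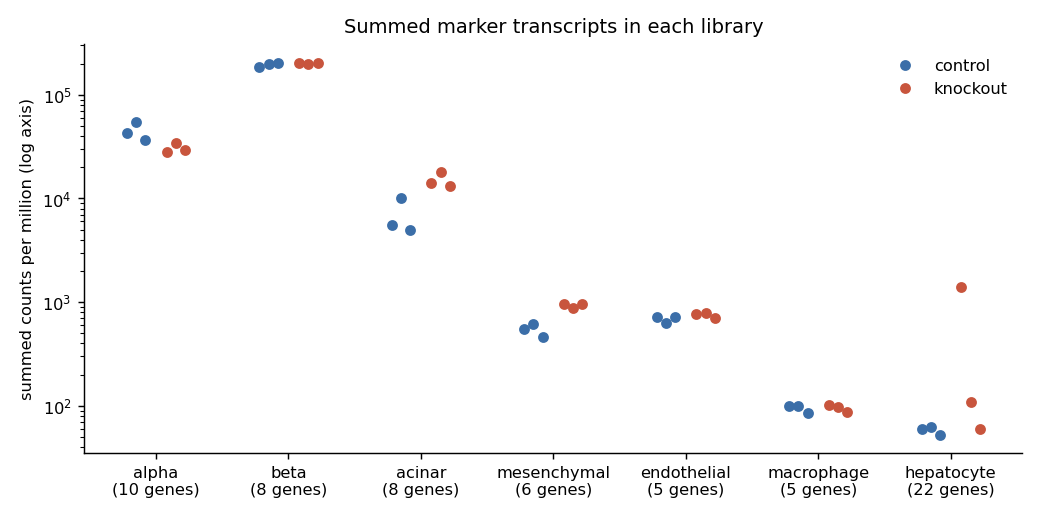
Summed CPM (log axis) of marker lists in each of the 3 control and 3 knockout libraries; each point is 1 library. Hepatocyte genes reach 1394 CPM in knockout replicate 1, and the alpha-cell sum, of which Gcg makes up at least 97.2% in each library, is lower and the acinar sum higher in all 3 knockout libraries.

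A list of 10 other alpha-cell genes was set beside the 3 members. In DESeq2, 3 of the 10 fell in the knockout libraries and 0 rose, while 0.657% of all genes given an adjusted p passed as lower. The list's direction had been seen in these libraries before and is no independent evidence. The median log2 difference was -0.34 for the 10 genes and -0.0061 for all genes given an adjusted p. The 3 genes were Gcg, Irx2 and Slc38a5. Slc38a5, a glutamine transporter gene on the X chromosome, had 2932 ± 422 normalized counts in the controls and 2008 ± 284 in the knockouts (SD, n = 3 per group), with a log2 difference of -0.55 ± 0.13 (SE, DESeq2 adjusted p = 0.00441). Irx2, a homeobox factor of alpha cells, differed by -0.45 ± 0.13 (SE, adjusted p = 0.0382), and Gcg had an adjusted p of 0.00332. Gcg made up 97.2 to 98.4% of the summed CPM of the 10, and the sum of the other 9 overlapped between the groups, at 710 to 899.8 in the controls and 776 to 814 in the knockouts.

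Irx1, a related homeobox gene, differed by -0.37 ± 0.12 (SE, DESeq2 adjusted p = 0.0706). At the other end, Slc7a2, an arginine and lysine transporter gene, was at 56680 ± 4698 and 58071 ± 258 normalized counts (SD, n = 3 each). Its log2 difference was 0.03 ± 0.08 (SE), it overlaps an annotated gene on the opposite strand, and that of the potassium channel gene Kcnj3 was 0.07 ± 0.13. Pou3f4, a POU homeobox gene, differed by 0.05 ± 0.25. Ttr thus lay beside Gcg and Slc38a5 in size of difference, Gc beside Slc7a2, and Smarca1 between Etv1 at -0.29 and Slc7a2. The edgeR quasi-likelihood test passed 0 of the 10 and 0.0198% of all genes as lower, with 4 at an unadjusted p under 0.05 against 5 in DESeq2. The number passing in DESeq2 was 1 without control replicate 2 and 5 without control replicate 3, beside 0.438% and 2.48% of all genes passing as lower. It was 0 without knockout replicate 1 and 0 without knockout replicate 3, beside 0.264% and 0.324%. The log2 differences without knockout replicate 1 were -0.50 ± 0.16 for Gcg, -0.47 ± 0.15 for Slc38a5 and -0.41 ± 0.16 for Irx2 (SE). Across 12 alternatives the DESeq2 or edgeR adjusted p lay between 0.00177 and 0.402 for Gcg and between 6.64e-05 and 0.41 for Irx2, and across the 11 that gave one, between 0.000391 and 0.218 for Slc38a5.

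**Figure D4:**
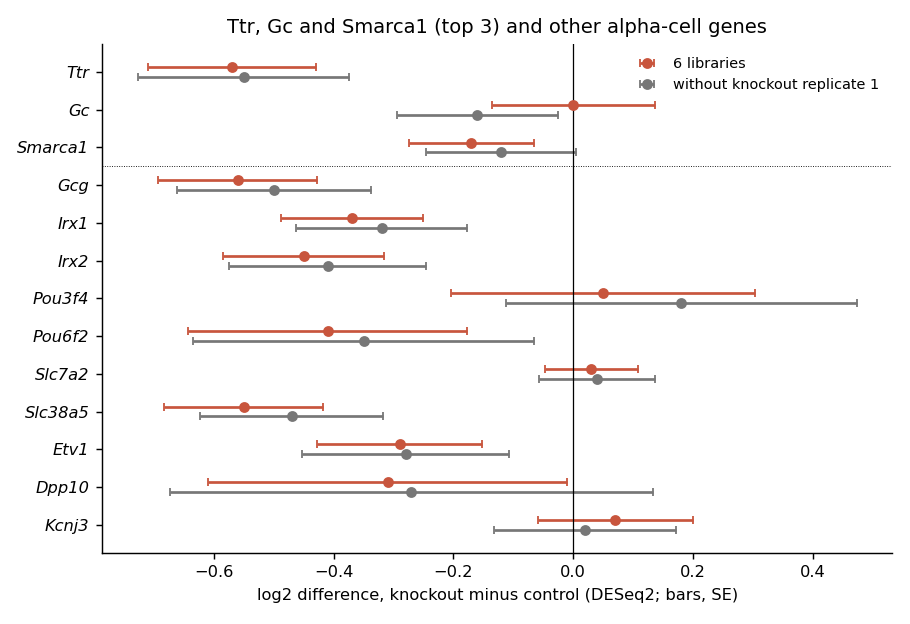
Log2 difference of knockout minus control (DESeq2, bars are SE) for Ttr, Gc and Smarca1 above the dotted line and for 10 other alpha-cell genes below it, with 6 libraries (red) and without knockout replicate 1 (grey). Ttr at -0.57 lies next to Gcg at -0.56, and the Gc value moves from 0.00 to -0.16 when the library is left out.

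The genes that work with transthyretin in retinol handling were then compared. Of 19 retinoid carriers, enzymes and receptors, 14 were given an adjusted p, 3 rose in the knockout libraries and 0 fell, while 1.53% of all genes passed as higher. Aldh1a1, an enzyme that makes retinoic acid, had 264, 404 and 472 normalized counts in the controls against 835, 643 and 679 in the knockouts. All knockout libraries were above all controls, as for 9.42% of the 15811 genes with a mean of at least 50, and the log2 difference was 0.92 ± 0.21 (SE, DESeq2 adjusted p = 0.00163). Because 2 annotated antisense genes overlap Aldh1a1, its count is uncertain.

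Cyp26b1, an enzyme that degrades retinoic acid, had 114, 144 and 225 normalized counts in the controls against 374, 264 and 485 in the knockouts. Its log2 difference was 1.22 ± 0.29 (SE, DESeq2 adjusted p = 0.00316), again without overlap. Rxra, a nuclear receptor that pairs with the retinoic acid, thyroid hormone and vitamin D receptors, had 6175, 5864 and 7340 in the controls and 7885, 8585 and 8591 in the knockouts. It had a log2 difference of 0.37 ± 0.10 (SE, adjusted p = 0.0127). Rbp4 was at 13370 ± 2548 and 12271 ± 1667 normalized counts (SD, n = 3 each, log2 difference -0.12 ± 0.14 SE), the related receptor gene Rxrb differed by 0.00, and Stra6, which encodes the cell-surface receptor for RBP4, was at or below 21.1 normalized counts in every library.

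For the retinoid list, edgeR passed 0 of the 19 and 0.0952% of all genes as higher, with 5 at an unadjusted p under 0.05 in edgeR and 5 in DESeq2. In DESeq2, 1 passed without control replicate 1, 1 without control replicate 2, 0 without knockout replicate 1 and 1 without knockout replicate 3; the gene was Aldh1a1 wherever 1 remained. In the same order, 1.59%, 1.13%, 0.615% and 1.17% of all genes passed as higher. Without knockout replicate 1 the log2 differences were 0.80 for Aldh1a1, 1.22 for Cyp26b1 and 0.41 for Rxra, with adjusted p-values of 0.11, 0.0746 and 0.0563. Over 12 alternatives the adjusted p ran from 3.76e-05 to 0.21 for Aldh1a1, from 1.89e-05 to 0.238 for Cyp26b1 and from 4.75e-09 to 0.21 for Rxra. The mesenchymal sum given above was also higher in the 3 knockout libraries, and its part in these differences was not tested.

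For thyroxine, the other cargo of transthyretin, 0 of 10 carrier, transporter, deiodinase and receptor genes passed in DESeq2 or edgeR, beside 2.19% and 0.115% of all genes in either direction, with 1 at an unadjusted p under 0.05 in each. The most abundant per kilobase were Slc16a10, which encodes a transporter of aromatic amino acids and thyroid hormones, at 57.4 ± 6.68 (SD, n = 6), Dio1, which encodes an iodothyronine deiodinase, at 42.7 ± 5.56, and the receptor gene Thra at 16.2 ± 1.51. Their log2 differences were -0.26 ± 0.10, 0.18 ± 0.12 and -0.16 ± 0.09 (SE). Slc16a10 passed as lower without knockout replicate 2 and Dio1 as higher without control replicate 3, making 1 call in each of those fits, beside 0.711% of all genes lower and 3.8% higher. Thra overlaps Nr1d1 on the opposite strand and Slc16a10 an annotated gene there, so their counts are uncertain.

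Among 9 genes of vitamin D handling and actin capture, which act with Gc, 0 passed in DESeq2, which gave 7 of them an adjusted p, or in edgeR, beside 2.19% and 0.115% of all genes. The 1 gene at an unadjusted p under 0.05 was the same in each, Cyp27a1, which encodes a sterol 27-hydroxylase that can also hydroxylate vitamin D. Its log2 difference was 0.83 ± 0.33 (SE, DESeq2 adjusted p = 0.215), and 0.43 ± 0.33 without knockout replicate 1. Vdr, the vitamin D receptor gene, was abundant, at 43.3 ± 4.70 CPM per kilobase (SD, n = 6), against 56.8 for Gc. Its normalized counts were 26295 ± 2563 in the controls and 24856 ± 3339 in the knockouts (SD, n = 3 each), a log2 difference of -0.08 ± 0.11 (SE). Pdia3, which encodes a disulfide isomerase also described as a membrane vitamin D receptor and overlaps Catsper2 on the opposite strand, differed by -0.06. Gsn, which encodes gelsolin, the partner of the vitamin D-binding protein in actin capture, differed by 0.14 ± 0.08. The receptors that take up the vitamin D-binding protein in kidney, encoded by Lrp2 and Cubn, were at or below 11.9 and 41.9 normalized counts in every library.

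None of 12 genes of ISWI-type complexes passed in DESeq2 or edgeR, beside 2.19% and 0.115% of all genes, and none had an unadjusted p under 0.05 in either. Their log2 differences ran from -0.12 for Pole3 to 0.17 for Cecr2. Smarca5 differed by -0.09 ± 0.07 (SE), Baz2a by 0.01 and Bptf by 0.06 ± 0.07. With all libraries the -0.17 ± 0.10 (SE) of Smarca1 lay below all 12. Without control replicate 2 Smarca1 was at -0.06, so this place in the order rests on that library. Rbbp7, an X-linked subunit gene that overlaps Txlng on the opposite strand, differed by -0.09 ± 0.08. Of 11 genes for liver-type transcription factors that are known regulators of Ttr or Alb in liver, 10 were given an adjusted p in DESeq2 and 0 passed, with 2 at an unadjusted p under 0.05, and 0 passed in edgeR, with 1, beside the same shares of all genes. The gene with the lowest p, Onecut1, which encodes a cut-homeobox factor, was higher in every knockout than in every control library, with a log2 difference of 0.90 ± 0.29 (SE, DESeq2 adjusted p = 0.0702, edgeR adjusted p = 0.315). Foxa2 was the most abundant of them per kilobase, at 41.7 ± 1.28 (SD, n = 6), with a log2 difference of 0.04 ± 0.07 (SE). Foxa3 differed by 0.21. Onecut1 passed as higher without control replicate 2 and Foxa3 as higher without control replicate 3, 1 gene in each fit, beside 1.13% and 3.8% of all genes.

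**Figure D5:**
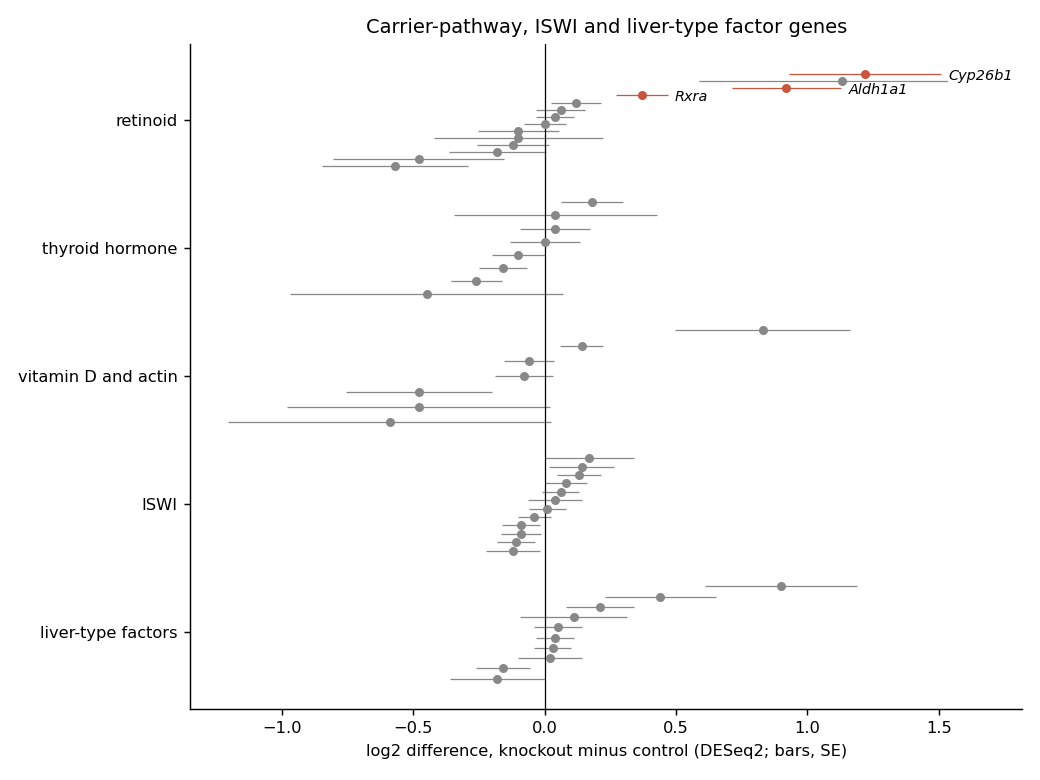
Log2 difference of knockout minus control (DESeq2, bars are SE) for the genes of 5 lists that were given an adjusted p; each point is a gene, and red points passed an adjusted p of 0.05. The only red points are Cyp26b1, Aldh1a1 and Rxra of the retinoid list, at 1.22, 0.92 and 0.37.

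The protein-coding genes on either side of the members were read next. B4galt6, a galactosyltransferase gene 10.3 kb from Ttr, differed by 0.21 ± 0.08 (SE, DESeq2 adjusted p = 0.141), and Dsg2, a desmosomal cadherin gene 60.8 kb away on the other side, by 0.14 ± 0.08. Ocrl, a phosphatase gene 19.4 kb from Smarca1, differed by -0.12 ± 0.11. Of the 12 nearest neighbours, 2 on each side of each gene, 8 were given an adjusted p in DESeq2 and 10 were fitted in edgeR. None of them passed in either, beside 2.19% and 0.115% of all genes, with 1 at an unadjusted p under 0.05 in DESeq2 and 2 in edgeR. The others were Dsg3 and Trappc8 for Ttr, Slc4a4, Dck, Npffr2 and Adamts3 for Gc, and Apln, Actrt1 and Prr32 for Smarca1. Actrt1 and Prr32 had 0 counts in every library, which allows up to 3 counts in each. Among the genes named so far, Afm, Cubn, Dsg2, Kcnj3 and Stra6 also overlap annotated genes on the opposite strand, and Col1a2, Col3a1, Gsn, Onecut1, Serpina3k, Smarca5 and Stra6 overlap genes on their own strand, so these counts are uncertain.

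Among 13950 other protein-coding genes with a mean of at least 50 normalized counts, likeness of pattern was measured as the root-mean-square distance between centred log2 values over the 6 libraries. The 5 genes nearest Ttr were Gdap2, Cfap52, E030030I06Rik, Tfpi and Gm1673, at distances of 0.0664, 0.0742, 0.0874, 0.101 and 0.122. Gdap2, Cfap52 and E030030I06Rik overlap genes on the opposite strand, so their counts are uncertain. Gdap2 had 3082, 4150 and 4180 normalized counts in the controls against 2371, 2825 and 2261 in the knockouts. Its libraries had the order of Ttr within the knockout group, while control replicates 2 and 3 changed places. Gcg, at 0.183, held place 48 in nearness to Ttr. Without knockout replicate 1, 4 of the 5 remained.

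For Gc the nearest genes were Mmp16, Aif1, Ribc1, Cox18 and Hsd17b7, at 0.0547 to 0.0826, with Mmp16 overlapping a gene on the opposite strand, and Gcg lay at 0.394, place 12550. None of these 5 remained without knockout replicate 1. Smarca1 was nearest to Smn1, Rnf138rt1, Prim2, Rplp1 and Rpl41, at 0.0274 to 0.0364, of which Smn1 and Prim2 remained without that library, and Gcg lay at 0.218, place 9150. Between the members, Gc and Smarca1 were 0.229 apart, Ttr and Smarca1 0.246, and Ttr and Gc 0.353. Gcg was nearer to Ttr than to Smarca1 or Gc. Ribosomal protein genes such as Rplp1 and Rpl41 have many near-identical copies, so their counts are uncertain, as is that of Prim2, which overlaps genes on the opposite strand.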

How the data were processed

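Islet RNA of 3 control and 3 knockout libraries was analysed as deposited. The authors deposited raw counts per gene for all 6 libraries in 1 table; the submitters' processing notes name STAR, featureCounts, FastQC, DESeq2 and mm10, without roles or versions, and the table's name records cutadapt trimming. The strand setting is not given in the sources used here. Of values from 1 to 9, 85.4% were even, against 44.4% if all were equally frequent, so counts may exceed the number of independent fragments; floors cover counting error only, and 3 counts correspond to 0.0272 to 0.0296 CPM. All 55536 identifiers and symbols matched GENCODE M21 (GRCm38, the mm10 build), which gave positions and exon lengths; 0 sample columns were left unused.

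DESeq2, with no correction for batch, is what the series' design states, so DESeq2 1.42.0 (R 4.3.3, Wald test, genotype only, at least 10 counts in total, Benjamini-Hochberg adjusted p under 0.05) was the main test and edgeR 4.0.16 (quasi-likelihood test, TMM factors) an alternative. With all genes, 389 of 17797 passed in DESeq2 (2.19%) and 29 of 25210 in edgeR (0.115%). When both fits were tested on simulated data with known changes, the share of false calls lay above the threshold of 0.05 in each, and it was larger in DESeq2 than in edgeR, which bears on calls that DESeq2 alone makes. Other alternatives were TMM or total-count scaling in DESeq2, other filters, an adjusted p of 0.1, autosomes only, a replicate block and each library left out. Per-kilobase values use the union of exons; centred log2 values add 1 to the normalized count.

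The 3 genes and all lists were chosen with earlier results of these data known. Genes named are the 3 members, Gcg, Alb, Klf4 and Xist, genes of the alpha-cell and partner lists that passed or were among the 3 highest per kilobase, genes of the other lists that passed, the 5 nearest patterns and 2 neighbours a side; others (Rbp4's receptor gene Stra6, Afp, Afm, Mup3, Irx1, Kcnj3, Etv1, Smarca5, Pole3, Cecr2, Onecut1, Cyp27a1, Pou3f4, Ambp, Lrp2 and Cubn) were added after their values were seen. The hepatocyte gene Tf was found under its mouse symbol Trf. Of further lists, DESeq2 called 1 of 5 duct genes (Krt7) and 2 of 5 macrophage genes (Cd68 and C1qb) as higher, beside 1.53% of all genes, and 1 of 8 beta-cell genes (Nkx6-1) as lower, beside 0.657%. It called 0 of 5 endothelial, 0 of 4 Schwann, 0 of 5 lymphocyte (2 given an adjusted p) and 0 of 5 delta or PP cell genes. The duct, macrophage and beta-cell lists gave 0 in edgeR and 0 without knockout replicate 1.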

Additional observations from a re-analysis of the deposited data

How the results depend on the processing

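Under edgeR, TMM or total-count scaling, and at least 10 counts in at least 3 libraries, the log2 difference of Ttr was -0.57 or -0.56. That of Gc was 0.00 or 0.01, and that of Smarca1 -0.17 or -0.16. With libraries left out in turn, the differences of Ttr, Gc and Smarca1 ran from -0.71 to -0.46, from -0.16 to 0.08 and from -0.24 to -0.06. Their SEs with all libraries were 0.14, 0.14 and 0.10 (DESeq2). The ratios to Gcg likewise ran from -0.13 to 0.14 for Ttr, 0.34 to 0.73 for Gc and 0.32 to 0.48 for Smarca1, and those to Alb from -6.42 to -2.16, -5.89 to -1.75 and -6.12 to -1.72. The count of 389 genes became 29 in edgeR (24 higher, 5 lower, against 272 and 117), 614 at an adjusted p of 0.1, and 153 to 952 with libraries left out, lowest without knockout replicate 1 and highest without control replicate 3.

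Called genes in edgeR were 0 in the alpha-cell list (3 in DESeq2), 0 in the hepatocyte list (7, or 6 that reached 10 counts in the controls) and 0 in the retinoid list (3); at an unadjusted p under 0.05 edgeR had 4, 20 and 5. With libraries left out, DESeq2 called 0 to 5 alpha-cell, 2 to 15 hepatocyte (1 to 11 of them with at least 10 counts in the controls), 0 to 1 albumin-family, 0 to 3 retinoid, 0 to 1 thyroid hormone and 0 to 1 liver-type factor genes. The cause was not tested.

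Same-numbered libraries did not deviate together (correlations across genes of -0.0482, -0.0587 and 0.0105), so the replicate block, which was added after seeing the data for the lists, pairs numbers only. Under the block 405 genes passed, the members stood at -0.57, 0.00 and -0.16, and 5 alpha-cell, 3 hepatocyte (2 with at least 10 counts in the controls) and 8 acinar genes passed (0 acinar genes without the block), beside 1.65% of all genes higher and 0.816% lower.

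Levels per kilobase were 1517 (Ttr), 72.7 (Gc) and 14.4 (Smarca1) when Ins1, Ins2 and Gcg were left out of the total, and the longest transcript gave 14.4 for Smarca1. Each member had at least 6738 counts in every library; at 3 against 3 the spread between libraries limits each comparison.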
